A study of Mus musculus with 8 samples.

Results

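The SERTA domain genes *Sertad1*, *Sertad2*, *Sertad3* and *Sertad4* were examined in 8 RNA-seq libraries of C3H10T1/2 cells, mesenchymal stem cells (MSCs) of the mouse that can turn into fat cells. The members are the 4 rows with these gene symbols among the 41325 symbols listed in each library, and all 4 passed the filter on low values (an RPKM over 1 in any library), as did 11513 genes in all. RPKM is the number of reads of a gene, scaled to its exon length and to the mapped reads of the library. The family was chosen by the RPKM of *Sertad4* in these same libraries, which was lower at day 5 than at day 0 in control cells and higher in all 3 knockdown lines than in control cells at day 5. Those values are therefore given as a description and support nothing.

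Control cells (shControl, genotype WT in the labels) and stable lines with an shRNA against *Kdm4d* (shKDM4D), *Nfib* (shNFIB) or *Kmt2a* (shMLL1) were each sequenced once at day 0 and once at day 5 of adipogenic differentiation. All 4 lines received the same hormones from day 0, when the cells had been confluent for 2 days, to day 2 (10 µg/ml insulin, 1 µM dexamethasone and 0.5 mM isobutylmethylxanthine), then insulin alone for 2 days, and were back in serum medium without added hormones when the day 5 libraries were made. Knockdown lines were established from puromycin-resistant clones, so a difference between clones and an effect of the knockdown cannot be told apart. In bulk RNA, fewer cells of a type and less RNA per cell cannot be told apart either. There are no replicate libraries, and the 95% intervals below cover counting error only.

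SERTA domain proteins, also called the TRIP-Br family, are small nuclear proteins that act as transcriptional coregulators. SERTAD1 binds CDK4 and stimulates transcription driven by E2F1 and its partner DP1, which links the family to the entry of cells into S phase. SERTAD2 has been tied to the regulation of lipolysis in fat cells, SERTAD3 binds a subunit of replication protein A, and SERTAD4 is the least studied of the group. *Cdca4* encodes a further SERTA domain protein and is described beside the 4 members.

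*Sertad3* and *Sertad1* are neighbours on the plus strand of chromosome 7 of GRCm38 (27473768 to 27477364 and 27486910 to 27490316), with 9545 bases between them. *Sertad2* lies on the plus strand of chromosome 11 (20543253 to 20653021) and *Sertad4* on the minus strand of chromosome 1 (192844488 to 192855756). The promoters are shown so that the sequence before the starts can be compared between members whose levels differed in direction. Each line gives the 120 bases before the outermost annotated start, 5′ to 3′ on the strand of the gene, from the RefSeq promoter table (GRCm38.p6), with the GC box GGGCGG and its complement in capitals.
Sertad1 (chr7:27486790-27486909, plus strand): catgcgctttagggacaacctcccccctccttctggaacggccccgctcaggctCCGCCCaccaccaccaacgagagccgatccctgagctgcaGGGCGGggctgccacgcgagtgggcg
Sertad2 (chr11:20543046-20543165, plus strand): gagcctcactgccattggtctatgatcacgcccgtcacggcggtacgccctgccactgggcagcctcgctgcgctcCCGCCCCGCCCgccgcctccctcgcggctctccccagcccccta
Sertad3 (chr7:27473648-27473767, plus strand): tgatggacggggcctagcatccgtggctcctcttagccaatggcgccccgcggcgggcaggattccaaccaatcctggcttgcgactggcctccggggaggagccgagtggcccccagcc
Sertad4 (chr1:192855757-192855876, minus strand): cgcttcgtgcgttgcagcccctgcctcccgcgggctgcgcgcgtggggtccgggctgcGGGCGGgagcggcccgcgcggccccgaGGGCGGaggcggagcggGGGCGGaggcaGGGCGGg
In the whole 300-base windows, the *Sertad4* window at the upstream start held 5 GC boxes on either strand, overlaps included, the *Sertad2* window 5, the *Sertad1* window 3 and the *Sertad3* window 1. At least 1 GC box was present in 35.7% of the 32851 windows in the table and at least 5 in 2.71%. The GC box was added after the windows had been looked at. *Sertad4* and *Sertad2* each have a further window at an internal start, with 0 and 5 GC boxes. None of the 6 windows held a match on either strand to the cAMP response element TGACGTCA (present in 1.79% of windows), the E2F sites TTTCCCGC, TTTCGCGC, TTTGGCGC and TTTGCCGC (2.26%), the C/EBP sites TTGCGCAA and TTGCACAA (1.19%), the C/EBP-ATF response element TGATGNAAT (0.965%), the palindromic NFI site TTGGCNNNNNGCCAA (0.0365%) or the palindromic glucocorticoid response element (0.00913%). The absence of these letters says nothing about the factors.

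*Sertad4* had the highest RPKM of the family in each of the 4 day 0 libraries. It stood at 37.1 for shControl, 54.9 for shKDM4D, 51.1 for shNFIB and 36.3 for shMLL1 cells, which placed it between the 90.0 and 93.7 percentiles of the filtered genes. At day 5 it was 5.55 for shControl, 20.1 for shKDM4D, 38.2 for shNFIB and 15.5 for shMLL1 cells. The 4 day 5 values thus spread over 6.87-fold, against 1.51-fold at day 0, and only the shNFIB value of day 5 lay within the day 0 range. In shControl cells *Sertad4* was at the 46.6 percentile of the genes at day 5. Its share of the summed RPKM of the 4 members was 54.4% to 64.9% at day 0, and at day 5 it was 16.3% for shControl, 39.6% for shKDM4D, 51.6% for shNFIB and 30.1% for shMLL1 cells.

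*Sertad1*, the CDK4-binding member, had day 0 RPKM values of 13.9 for shControl, 13.9 for shKDM4D, 13.0 for shNFIB and 12.1 for shMLL1 cells. The day 5 values were 9.93, 11.8, 13.9 and 15.3 in the same order, so that the lines were spread over 1.15-fold before induction and 1.54-fold after it. *Sertad2* was at 10.4 for shControl, 9.34 for shKDM4D, 7.16 for shNFIB and 8.24 for shMLL1 cells at day 0. At day 5 it was at 7.90, 9.66, 6.23 and 8.93, and shNFIB cells had the lowest *Sertad2* level on both days. *Sertad3*, which encodes the replication protein A partner, was at 6.84 for shControl, 6.74 for shKDM4D, 7.46 for shNFIB and 4.73 for shMLL1 cells at day 0 and at 10.6, 9.12, 15.7 and 12.0 at day 5. On the RPKM scale the lowest day 5 value of *Sertad3* was above the highest day 0 value, which was the case for no other member. As a ratio to *Gapdh* the day 0 and day 5 ranges of *Sertad3* overlapped, with the lowest *Gapdh* level (159) in shNFIB cells at day 0. Over the 8 libraries the highest value was 1.54 times the lowest for *Sertad1*, 1.68 times for *Sertad2*, 3.32 times for *Sertad3* and 9.89 times for *Sertad4*.

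**Figure D1:**
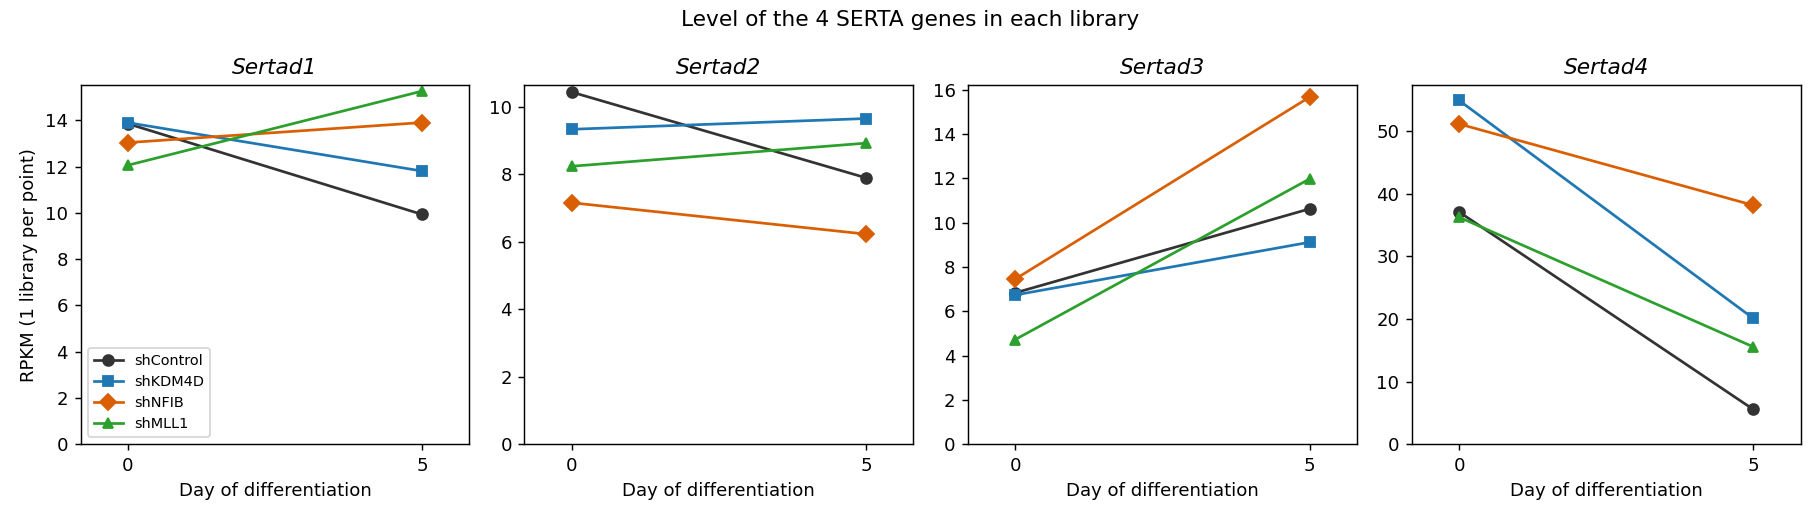
RPKM of each SERTA gene (vertical axis, from 0, with its own scale in each panel) at day 0 and day 5 (horizontal axis) in the 4 lines, 1 library per point. *Sertad4* is between 36.3 and 54.9 at day 0 and between 5.55 and 38.2 at day 5, whereas *Sertad3* is higher at day 5 in all 4 lines.

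In shControl cells, 3804 reads of *Sertad4* were recovered at day 0 and 413 at day 5, and it was 6.68-fold lower at day 5 (log2 ratio -2.74, 95% interval -2.89 to -2.59). Of the genes compared, 89 had a lower ratio. It was the only member past 2-fold, 1 of 4 lower and 0 of 4 higher, where 8.56% of all filtered genes fell and 13.0% rose past that limit. The log2 ratio was -0.48 (-0.70 to -0.26) for *Sertad1*, -0.40 (-0.52 to -0.29) for *Sertad2* and 0.64 (0.38 to 0.89) for *Sertad3*. *Sertad1* and *Sertad3*, although adjacent, thus lay on opposite sides of 0, both outside counting error.

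In the knockdown lines the ratio of day 5 to day 0 was nearer to 0 for *Sertad4* in each case. It was -1.45 (-1.53 to -1.37) for shKDM4D, -0.42 (-0.50 to -0.35) for shNFIB and -1.22 (-1.29 to -1.15) for shMLL1 cells. In shKDM4D cells *Sertad4* was again the only member past 2-fold (1 of 4 lower), beside a background of 8.44% of genes lower and 12.8% higher. In shNFIB cells it did not reach 2-fold, and *Sertad3* was the only member past it (1 of 4 higher, log2 ratio 1.07, 0.81 to 1.34), where 12.6% of genes were higher and 4.96% lower. In shMLL1 cells *Sertad3* was higher (1.34, 1.12 to 1.56) and *Sertad4* lower by more than 2-fold, against 20.4% and 6.89% of all genes. In that line the median log2 ratio of the genes was itself 0.17, and relative to it the values were 1.17 for *Sertad3* and -1.39 for *Sertad4*. As a ratio to *Gapdh*, which itself varied between the lines, the *Sertad4* value became -0.98 in shKDM4D cells, short of 2-fold, and -0.99 in shNFIB cells, so that these lines no longer stood apart. The *Sertad3* call in shNFIB cells was lost under 4 of the other scales, all of them listed with the alternatives.

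*Sertad1* and *Sertad2* did not pass 2-fold in any line, and their small values depended on the scale. The log2 ratio of day 5 to day 0 for *Sertad1* was -0.24 (-0.45 to -0.02) for shKDM4D, 0.09 (-0.14 to 0.32) for shNFIB and 0.34 (0.19 to 0.49) for shMLL1 cells. For *Sertad2* it was 0.05 (-0.07 to 0.16) for shKDM4D, -0.20 (-0.35 to -0.05) for shNFIB and 0.12 (0.03 to 0.20) for shMLL1 cells. As a ratio to *Gapdh*, *Sertad1* turned to 0.23 in shKDM4D and -0.47 in shNFIB cells, and *Sertad2* to -0.00237 in shMLL1 cells. Relative to the median gene of shMLL1 cells the values of that line were 0.17 for *Sertad1* and -0.05 for *Sertad2*.

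**Figure D2:**
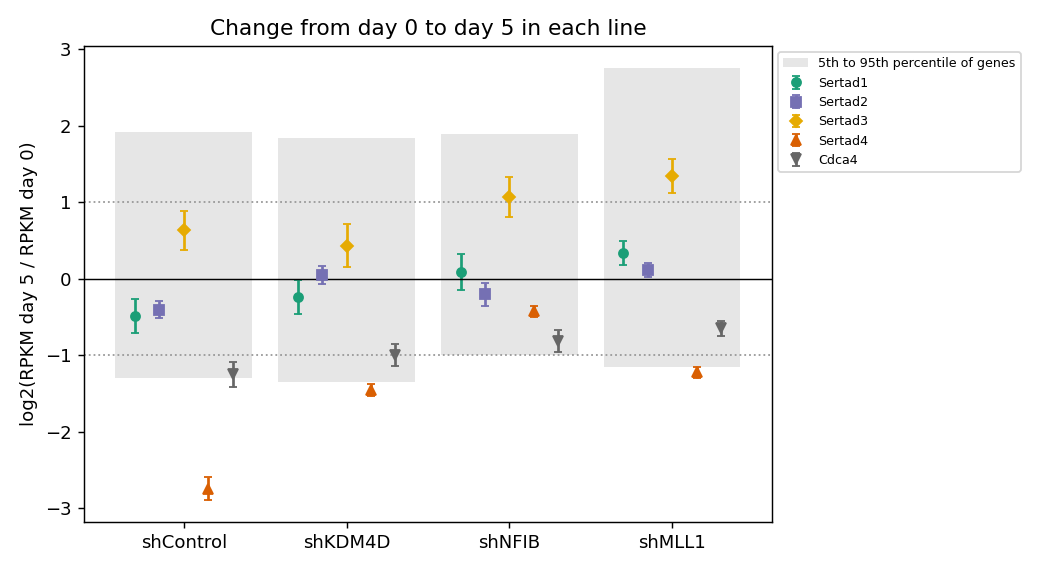
Log2 ratio of the RPKM at day 5 to that at day 0 (vertical axis) for the 4 SERTA genes and *Cdca4* in each line (horizontal axis), with exact 95% counting intervals as bars, the range from the 5th to the 95th percentile of the genes in grey, and dotted lines at 2-fold. *Sertad4* lies below the grey range in shControl, shKDM4D and shMLL1 cells, at -2.74, -1.45 and -1.22, and inside it in shNFIB cells, at -0.42.

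The change of *Sertad4* in each knockdown line was compared with that in shControl cells as the difference of the log2 ratios. The difference was 1.29 (1.12 to 1.46) for shKDM4D, 2.32 (2.15 to 2.48) for shNFIB and 1.52 (1.36 to 1.68) for shMLL1 cells. The values that chose the family are part of these differences, so their size for *Sertad4* is a description and supports nothing. The difference was smaller for the other members. For *Sertad1* it was 0.24 (-0.06 to 0.55) for shKDM4D, 0.57 (0.26 to 0.89) for shNFIB and 0.82 (0.56 to 1.09) for shMLL1 cells, and for *Sertad2* it was 0.45 (0.29 to 0.61) for shKDM4D, 0.20 (0.01 to 0.39) for shNFIB and 0.52 (0.37 to 0.66) for shMLL1 cells. *Sertad3* gave -0.20 (-0.57 to 0.17) for shKDM4D, an interval that holds 0, and 0.43 (0.07 to 0.80) and 0.70 (0.38 to 1.03) for shNFIB and shMLL1 cells. All of these differences share the 2 shControl libraries.

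Before induction, none of the 4 members differed by more than 2-fold between a knockdown line and shControl cells. Among all filtered genes, 1.98% were higher and 4.26% lower for shKDM4D, 2.95% higher and 6.05% lower for shNFIB, and 1.67% higher and 7.43% lower for shMLL1 cells. The background of shNFIB cells, taken as a ratio to *Gapdh*, turned to 19.7% higher and 3.01% lower. The log2 ratio of *Sertad4* to shControl cells at day 0 was 0.57 (0.50 to 0.63) for shKDM4D, 0.46 (0.40 to 0.53) for shNFIB and -0.03 (-0.09 to 0.03) for shMLL1 cells. *Sertad2* was below shControl cells in each knockdown line, with -0.16 (-0.27 to -0.05), -0.54 (-0.66 to -0.42) and -0.34 (-0.44 to -0.25). When the ratio was taken to *Gapdh*, that of *Sertad2* in shNFIB cells became 0.10. *Sertad1* was within counting error of shControl cells in shKDM4D and shNFIB cells and at -0.20 (-0.37 to -0.03) in shMLL1 cells. *Sertad3* was likewise within counting error in shKDM4D and shNFIB cells and at -0.53 (-0.80 to -0.27) in shMLL1 cells.

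At day 5, *Sertad4* was the only member past 2-fold in each knockdown line, 1 of 4 higher and 0 of 4 lower. The background was 1.88% of genes higher and 4.57% lower for shKDM4D, 5.54% and 5.67% for shNFIB, and 5.25% and 4.02% for shMLL1 cells. Its log2 ratio to shControl cells was 1.86 (1.70 to 2.01), 2.78 (2.63 to 2.94) and 1.49 (1.33 to 1.64), or 3.62-fold, 6.87-fold and 2.80-fold higher. These contrasts chose the family and share 1 shControl library with 413 *Sertad4* reads. In comparisons that do not use that library, *Sertad4* was higher in shNFIB than in shKDM4D cells (log2 ratio 0.93, 0.83 to 1.02) and than in shMLL1 cells (1.30, 1.21 to 1.38), and higher in shKDM4D than in shMLL1 cells (0.37, 0.28 to 0.46). Among the knockdown lines the order at day 5 was thus shNFIB, shKDM4D and shMLL1 cells, and each pair differed beyond counting error. The last place of shControl cells follows from the choice of the family and supports nothing. At day 0 shKDM4D cells stood above shNFIB cells by 0.10 on the log2 scale (shNFIB over shKDM4D, -0.10, -0.17 to -0.04), and shControl and shMLL1 cells were within counting error of each other. As a ratio to *Gapdh*, the day 0 value of shNFIB cells rather than that of shKDM4D cells was farthest above shControl cells (1.104 against 0.166), and it then passed 2-fold.

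The other members stayed within 2-fold of shControl cells at day 5. *Sertad1* was above shControl cells in each line, and its log2 ratio was 0.25 (0.01 to 0.49) for shKDM4D, 0.49 (0.24 to 0.73) for shNFIB and 0.62 (0.41 to 0.83) for shMLL1 cells. *Sertad2* was at 0.29 (0.17 to 0.41) for shKDM4D, -0.34 (-0.49 to -0.20) for shNFIB and 0.18 (0.07 to 0.29) for shMLL1 cells. *Sertad3* was at 0.56 (0.32 to 0.80) in shNFIB cells, and in shKDM4D (-0.22, -0.47 to 0.03) and shMLL1 cells (0.17, -0.04 to 0.38) the interval held 0. The ratio to *Gapdh* brought *Sertad2* to -0.18 and *Sertad3* to -0.18 in shMLL1 cells. Among the knockdown lines at day 5, *Sertad2* was lower in shNFIB than in shKDM4D cells by 0.63 on the log2 scale (-0.63, -0.77 to -0.49), while *Sertad3* was higher (0.78, 0.54 to 1.02).

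**Figure D3:**
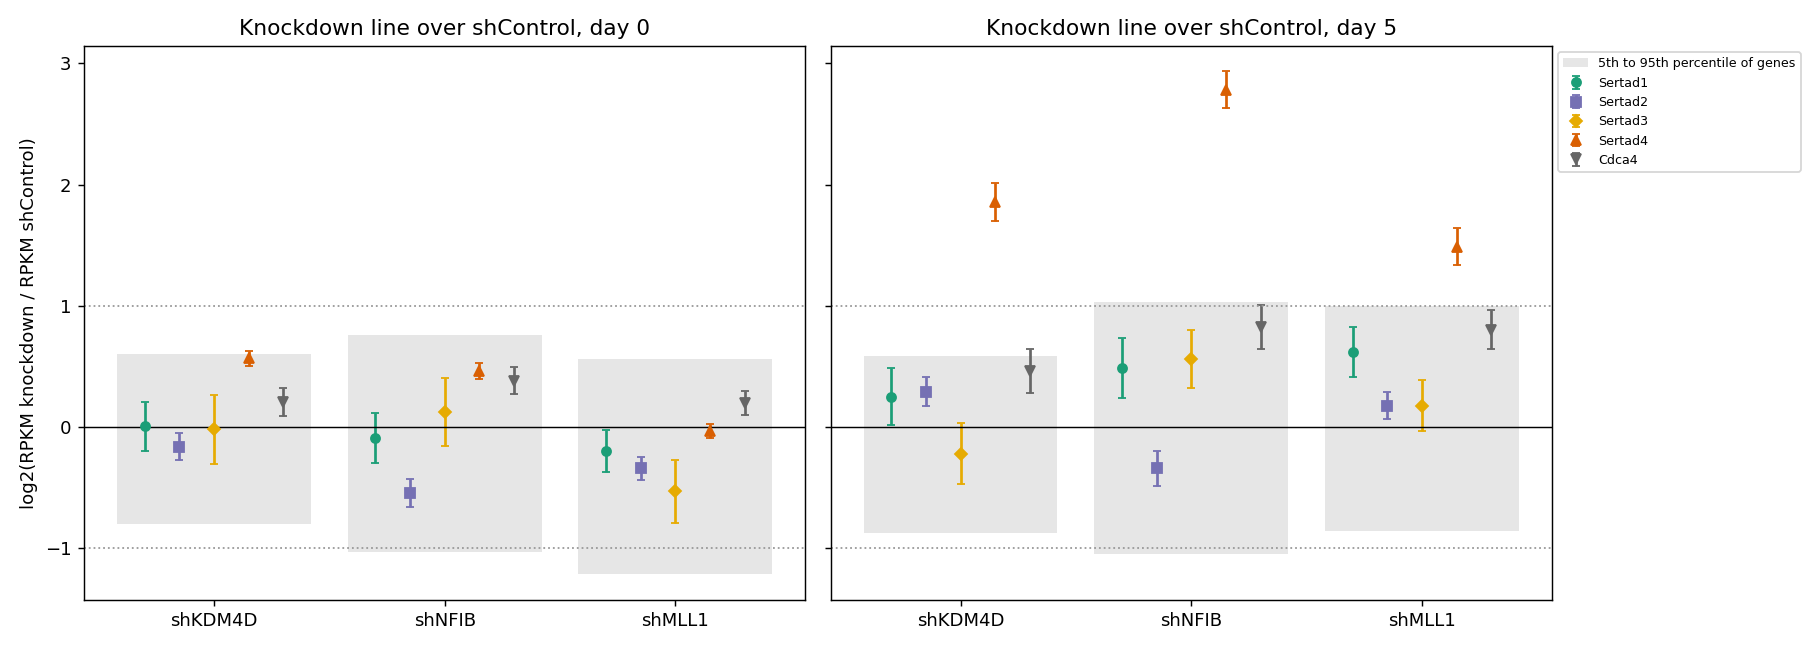
Log2 ratio of the RPKM of each knockdown line to that of shControl cells (vertical axis) at day 0 (left) and day 5 (right) for the 4 SERTA genes and *Cdca4*, with exact 95% counting intervals as bars, the 5th to 95th percentile of the genes in grey and dotted lines at 2-fold. At day 5 *Sertad4* lies above the grey range in all 3 lines, at 1.86, 2.78 and 1.49, and the other members lie inside it.

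An antisense gene, *Gm15867* (chromosome 1, plus strand, 192854923 to 192856246), spans the upstream start of *Sertad4* and shares 138 exon bases with it. Whether reads were counted by strand is not given in the sources used here, so the source of reads in the shared bases is uncertain. *Gm15867* had 106, 111, 58 and 138 reads at day 0 and 17, 16, 35 and 46 reads at day 5 in shControl, shKDM4D, shNFIB and shMLL1 cells. This was between 0.958% and 4.12% of the *Sertad4* reads of the same library. Its log2 ratio of day 5 to day 0 was -2.18 (-3.01 to -1.43) for shControl, -2.94 (-3.80 to -2.18) for shKDM4D, -0.49 (-1.14 to 0.14) for shNFIB and -1.58 (-2.10 to -1.09) for shMLL1 cells. At day 5 shNFIB cells had more *Gm15867* than shControl cells (log2 ratio 1.33, 0.45 to 2.26), and in shKDM4D cells, where *Sertad4* was 3.62-fold higher, the interval held 0 (-0.25, -1.33 to 0.82). The nearest protein-coding neighbours of *Sertad4* were *Hhat*, with an RPKM of 0.492 for shControl, 0.961 for shKDM4D, 1.19 for shNFIB and 0.705 for shMLL1 cells at day 5, and *Syt14*, which was at or near 0 in every library.

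*Cdca4* was also lower at day 5 than at day 0 in every line. Its RPKM was 12.5 for shControl, 14.4 for shKDM4D, 16.3 for shNFIB and 14.4 for shMLL1 cells at day 0 and 5.26, 7.24, 9.31 and 9.18 at day 5. Every day 5 value was below every day 0 value. The log2 ratio was -1.25 (-1.41 to -1.09) for shControl, -0.995 (-1.13 to -0.86) for shKDM4D, -0.81 (-0.95 to -0.67) for shNFIB and -0.64 (-0.74 to -0.55) for shMLL1 cells. The value of shControl cells was past 2-fold and that of shKDM4D cells lay at the limit, which it passed after median-of-ratios scaling (-1.02) and without the genes that resemble ribosomal RNA (-1.07). As a ratio to *Gapdh* shNFIB cells passed 2-fold as well (-1.37). At day 5 it was above shControl cells by 0.46 (0.28 to 0.64) for shKDM4D, 0.823 (0.642 to 1.004) for shNFIB and 0.80 (0.65 to 0.96) for shMLL1 cells. Over the 8 libraries the Pearson correlation of log2(RPKM + 0.1) with *Sertad4* was 0.90 for *Cdca4*, 0.60 for *Sertad1*, -0.05 for *Sertad2* and -0.41 for *Sertad3*. These are descriptions of 8 libraries that share lines and days.

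The adipocyte markers moved the opposite way. The summed RPKM of 7 markers (*Adipoq*, *Fabp4*, *Plin1*, *Cidec*, *Lpl*, *Pparg* and *Cebpa*) was 4.09 to 10.95 at day 0, and at day 5 it was 777 for shControl, 38.6 for shKDM4D, 12.0 for shNFIB and 12.3 for shMLL1 cells. All 7 rose past 2-fold in shControl cells, beside 13.0% of all filtered genes. At day 5 all 7 were lower than in shControl cells by more than 2-fold in each knockdown line. Of all filtered genes, 4.57%, 5.67% and 4.02% were lower in shKDM4D, shNFIB and shMLL1 cells. *Lpl* passed the filter only through shControl cells at day 5 (33.1, against 0.998 in shKDM4D cells). *Adipoq*, which encodes adiponectin, was at 258 in shControl and 9.01, 0.229 and 0.570 in shKDM4D, shNFIB and shMLL1 cells. The correlation of *Sertad4* over the 8 libraries was -0.95 with *Fabp4*, -0.92 with *Adipoq*, -0.80 with *Pparg* and -0.79 with *Cebpa*. *Sertad4* was chosen for its low value in shControl cells at day 5, the library in which these markers are highest. The correlations therefore follow in part from that choice and support nothing. At day 5 shKDM4D cells had more *Sertad4* than shMLL1 cells (20.1 and 15.5) and also more marker RNA (38.6 and 12.3). Already at day 0 *Sertad4* was at 54.9 in shKDM4D and 36.3 in shMLL1 cells. The part of fat cell formation in the *Sertad4* values was not tested.

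**Figure D4:**
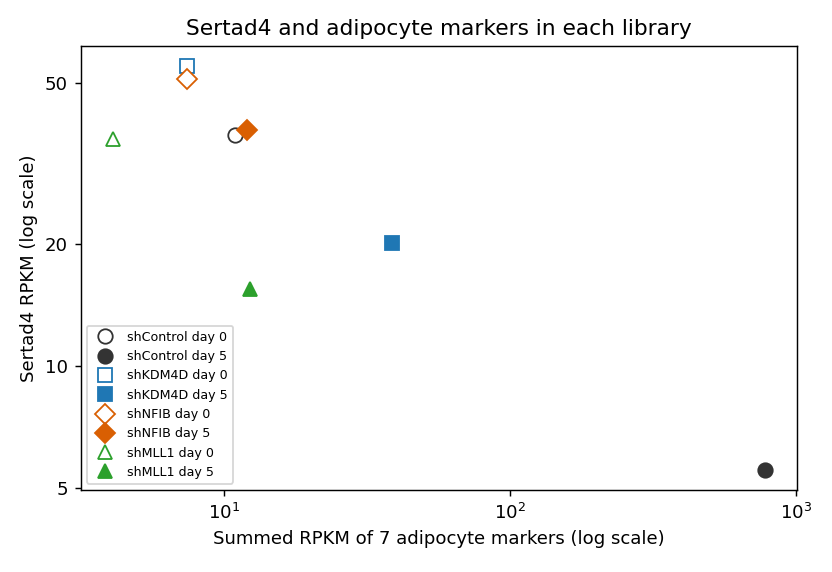
RPKM of *Sertad4* (vertical axis, log scale) against the summed RPKM of 7 adipocyte markers (horizontal axis, log scale) in the 8 libraries, with open symbols for day 0 and filled symbols for day 5. shControl cells at day 5 stand apart at 777 and 5.55. The day 5 libraries of shNFIB and shMLL1 cells have marker sums of 12.0 and 12.3 and *Sertad4* values of 38.2 and 15.5. Most of both sums is *Pparg* (7.48 and 7.22) and *Cebpa* (3.66 and 2.42). Single markers differ between these libraries, such as *Fabp4* (0.380 and 1.75) and, the other way, *Lpl* (0.151 and 0.0501).

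Markers of other cell types were examined as well. The 7 mesenchymal markers were listed above 0 in all 8 libraries, with a summed RPKM of 1688 to 2491. Most of each sum was *Vim* and *Col1a1*, such as 1040 and 809 of 1955 in shControl cells at day 0. *Thy1*, which encodes the surface antigen CD90, differed between the lines, and its lowest values rest on very few reads. At day 0 it was at 25.0 for shControl and 11.8 for shMLL1 cells, against 0.0171 in shKDM4D and 0.0179 in shNFIB cells, and at 22.6, 11.1, 0.139 and 0.0632 in shControl, shMLL1, shKDM4D and shNFIB cells at day 5. The lines low in *Thy1* are the lines in which *Sertad4* was above shControl cells at day 0, and the part of such line differences was not tested. *Pdgfra*, a receptor of fat cell progenitors, rose in shControl cells (log2 ratio 2.41, 2.35 to 2.46) and in each knockdown line (1.75, 1.36 and 1.31). In shControl cells it was the only mesenchymal marker past 2-fold, 1 of 7 higher and 0 lower. This is near the share of all filtered genes, of which 13.0% were higher and 8.56% lower. *Pdgfrb* and *Vim* were also above 0, and *Thy1*, *Eng*, *Cd44* and *Col1a1* were below it. The list median on the log2(RPKM + 0.1) scale was -0.14, beside 0.03 for all filtered genes. Of the chondrocyte and osteoblast genes, 3 of 7 passed the filter. *Col2a1*, the cartilage collagen, fell in shControl cells (log2 ratio -3.03) and *Sox9* rose (1.17, 1.12 to 1.21). *Myod1* and *Cd3e* were listed at 0 in every library, and the summed RPKM was at most 1.36 for 5 muscle markers, of which *Des* alone passed the filter, and 1.64 for 5 leukocyte markers.

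The targeted genes were checked as follows. *Nfib* had a log2 ratio to shControl cells of -2.10 at day 0 and -2.33 at day 5 in shNFIB cells, and *Kmt2a* of -1.37 and -1.70 in shMLL1 cells. *Kdm4d* had 2 reads in shControl and 1 read in shKDM4D cells at day 0 and 13 and 4 reads at day 5, so that its knockdown could not be seen at day 0 at this depth. The libraries held 15800000 to 38200000 mapped reads.

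The genes that SERTA proteins are known to act on were taken from lists. Of 13 E2F, DP and pocket protein genes, 5 fell in shControl cells from day 0 to day 5 and 0 rose, and 4 fell in each knockdown line (3, 7 and 4 as a ratio to *Gapdh* in shKDM4D, shNFIB and shMLL1 cells). Of all filtered genes, 8.56%, 8.44%, 4.96% and 6.89% fell past 2-fold in shControl, shKDM4D, shNFIB and shMLL1 cells. The activator *E2f2* (log2 ratio -2.67), the repressors *E2f7* (-2.23) and *E2f8* (-1.99) and the pocket protein gene *Rbl1* (-1.56) were the lowest in shControl cells. *E2f2* passed the filter only through shControl cells at day 0 (RPKM 1.21, and 0.191 at day 5). Its fall in that line, counted among the 5, is therefore tied to the filter and supports nothing. *Tfdp1*, which encodes the E2F partner DP1, had an RPKM of 58.0 before and 29.0 after differentiation of shControl cells, a log2 ratio of -1.002 that just passed 2-fold. *E2f1* itself did not pass 2-fold (9.14 and 7.32, log2 ratio -0.32). The median log2 ratio of the list on the log2(RPKM + 0.1) scale was -0.66, beside 0.03 for all filtered genes.

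Among 17 E2F target genes, which encode replication factors, enzymes of nucleotide synthesis, cyclins E and A2 and the phosphatase CDC25A, 15, 15, 5 and 14 fell in shControl, shKDM4D, shNFIB and shMLL1 cells from day 0 to day 5, and 0 rose in any line. The medians were -1.57, -1.32, -0.88 and -1.35 in that order, and 8.56%, 8.44%, 4.96% and 6.89% of all filtered genes fell past 2-fold. The replicative helicase genes *Mcm5* (-2.15) and *Mcm2* (-2.10), the licensing factor *Cdt1* (-2.07) and thymidine kinase *Tk1* (-1.99) were the lowest in shControl cells. At day 5, 0, 4 and 4 of the 17 genes were higher than in shControl cells by more than 2-fold in shKDM4D, shNFIB and shMLL1 cells, with medians of 0.43, 0.76 and 0.71, and 0 were lower. Of all filtered genes, 1.88%, 5.54% and 5.25% were higher and 4.57%, 5.67% and 4.02% lower in the same order. *Tk1* was at 6.52 for shControl, 8.92 for shKDM4D, 14.7 for shNFIB and 10.7 for shMLL1 cells. On the RPKM scale shNFIB cells had the fewest E2F target genes past 2-fold from day 0 to day 5 and the *Sertad4* ratio nearest to 0, which is a description of 4 lines. Neither held as a ratio to *Gapdh*, since 15 of the 17 genes then fell in shNFIB and 5 in shKDM4D cells. The day 5 count of shMLL1 cells also depended on the scale, and went from 4 genes higher to 0 as a ratio to *Gapdh*.

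**Figure D5:**
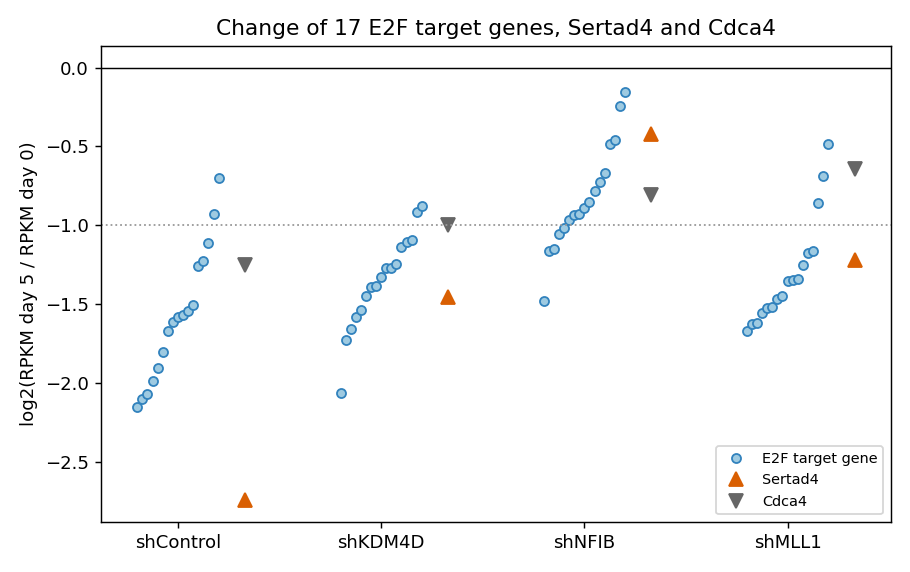
Log2 ratio of the RPKM at day 5 to that at day 0 (vertical axis) of 17 E2F target genes (circles, sorted within each line), *Sertad4* and *Cdca4* (triangles) in the 4 lines (horizontal axis), with a dotted line at 2-fold. *Sertad4* lies below all 17 genes in shControl cells (-2.74) and above most of them in shNFIB cells (-0.42).

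Of the cyclin D, CDK4/6 and INK4 genes, 7 of 9 passed the filter, and *Cdkn2a* and *Cdkn2b* were listed at 0 in every library. *Cdk4*, whose product SERTAD1 binds, had RPKM values of 64.0 for shControl, 41.5 for shKDM4D, 42.2 for shNFIB and 54.5 for shMLL1 cells at day 0 and of 50.2, 45.3, 59.6 and 57.1 at day 5. On the RPKM scale *Cdk4* did not pass 2-fold in any comparison. As a ratio to *Gapdh* it was lower past 2-fold in shKDM4D than in shControl cells at day 0. *Cdk6* (-1.57) and the cyclin D1 gene *Ccnd1* (-1.24) fell in shControl cells, beside 8.56% of all filtered genes. In shKDM4D, shNFIB and shMLL1 cells 2, 1 and 2 of the 7 genes were lower past 2-fold, beside 8.44%, 4.96% and 6.89%. *Ccnd1* lay at the limit in shNFIB cells (-0.998). As a ratio to *Gapdh* the count was smaller in shKDM4D and larger in shNFIB cells. At day 5 *Ccnd1* was at 28.0 for shControl, 36.1 for shKDM4D, 65.3 for shNFIB and 32.4 for shMLL1 cells, and shNFIB cells were higher by more than 2-fold (log2 ratio 1.22, 1.15 to 1.29).

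Of 6 genes for transcriptional cofactors and replication protein A subunits, *Rpa2* (-1.25) and *Rpa1* (-1.18) fell in shControl cells, where *Sertad3* had a log2 ratio of 0.64. Of all filtered genes, 8.56% fell past 2-fold there. *Rpa3* was at -0.60. The coactivator genes *Crebbp* and *Ep300* and the corepressor gene *Trim28* stayed within 2-fold, at -0.07, -0.23 and -0.52. On the RPKM scale 0 of the 6 genes passed 2-fold between a knockdown line and shControl cells on either day, and as a ratio to *Gapdh* 1 was higher in shNFIB cells at day 0. On the RPKM scale 1.67% to 7.43% of all filtered genes passed that limit in each direction.

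For adrenergic lipolysis, to which SERTAD2 has been tied, 3 of the 4 genes that passed the filter rose in shControl cells. Of all filtered genes, 13.0% rose past 2-fold there. The hormone-sensitive lipase gene *Lipe* went from 0.733 to 15.4 (log2 ratio 4.39, 4.12 to 4.68), and the triglyceride lipase gene *Pnpla2* from 7.50 to 109 (3.86, 3.74 to 3.99). *Adrb3*, the beta-3 adrenergic receptor gene, was listed at 0 in all 4 day 0 libraries and at 1.07 in shControl and 0.0548 in shKDM4D cells at day 5. It passed the filter only through shControl cells at day 5. Its part in the counts of this paragraph is therefore tied to the filter and supports nothing. *Sertad2* did not pass 2-fold in the same libraries. At day 5, 4, 3 and 3 of the 4 genes were lower than in shControl cells by more than 2-fold in shKDM4D, shNFIB and shMLL1 cells, where the *Sertad2* log2 ratio was 0.29, -0.34 and 0.18. Of all filtered genes, 4.57%, 5.67% and 4.02% were lower.

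The genes with the pattern most like each member were found by the Pearson correlation of log2(RPKM + 0.1) over the 8 libraries, among genes with a range of at least 1 on that scale. For *Sertad4* these were *Rgs19*, which encodes a regulator of G protein signalling (0.99), the ETS repressor gene *Erf* (0.97), *Arl6ip6* (0.97), *Enoph1* (0.96) and the helicase gene *Rtel1* (0.95). *Rgs19* was at 13.6 for shControl, 16.7 for shKDM4D, 15.6 for shNFIB and 14.4 for shMLL1 cells at day 0. At day 5 it was at 6.80, 11.9, 14.8 and 10.5, the order of *Sertad4* with a smaller spread. *Rgs19* was picked for its likeness over these same libraries, so the shared order supports nothing. The *Sertad4* list also rests in part on the shControl value of day 5 that chose the family. For *Sertad3* they were *Smarcd3*, which encodes a chromatin remodelling subunit (0.99), *2310009A05Rik* (0.99), *Ngrn* (0.98), the respiratory chain gene *Ndufa3* (0.98) and *Gm14288* (0.98). *Sertad1* was most like the antiviral gene *Zc3hav1* (0.96), *Gm45713* (0.92), the translation initiation factor gene *Eif2b2* (0.91), *Fam98c* (0.89) and *Tll1* (0.89). *Sertad2* was most like the mannosidase gene *Man1c1* (0.91), *Adgrl3* (0.91), the Polycomb gene *Cbx7* (0.88), *Gxylt2* (0.88) and *Usp17la* (0.84). No gene was among the 5 of more than 1 member, where each 5 were taken from 5911 or 5912 ranked genes. Lists this short would seldom share a gene in any case, so the absence supports nothing.

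The flanking genes of the other members were examined for comparison. *Blvrb*, the biliverdin reductase gene next to *Sertad3*, was at 5.57 for shControl, 6.02 for shKDM4D, 4.76 for shNFIB and 3.35 for shMLL1 cells at day 0 and at 11.3, 10.6, 11.1 and 9.96 at day 5, higher at day 5 in all 4 lines as *Sertad3* was. *Prx*, next to *Sertad1*, stayed between 0.887 and 1.87. *Slc1a4*, on the lower side of *Sertad2*, was at 9.71, 9.50, 3.74 and 3.67 at day 0 and at 4.78, 4.51, 5.00 and 5.79 at day 5 in shControl, shKDM4D, shNFIB and shMLL1 cells. It fell past 2-fold in shControl (-1.02) and shKDM4D cells (-1.07), and at day 0 it was below shControl cells by more than 2-fold in shNFIB (-1.38) and shMLL1 cells (-1.40), where *Sertad2* was at -0.54 and -0.34. *Aftph*, on the other side, stayed between 3.17 and 5.14. A processed pseudogene, *Gm12035*, lies within *Sertad2* and has no value here.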

How the data were processed

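RNA of 8 cultures was sequenced, 1 library for each of 4 lines and 2 days. With CLC Genomics Workbench, the authors aligned the reads to GRCm38 (the build in the labels) and deposited the RPKM of each gene, which corrects for exon length and mapped reads. A stranded library kit was used, per the methods, and the strand setting of the counting is not given in the sources used here. The members and the gene lists were chosen with earlier results of these data known. Read numbers were recovered from the RPKM, the exon length in GENCODE M21 (40829 of 41325 symbols matched 1 gene) and the value of 1 read. In each library 96.2% to 96.6% of the values between 0.5 and 1000 reads were within 0.02 of a whole read, and those of the members were whole in all 8. Genes resembling ribosomal RNA took 7.95% to 10.5% of the mapped reads in the day 0 libraries and 3.07% to 3.62% in the day 5 libraries. This share goes with the day and raises the RPKM at day 5. Without these genes the *Sertad4* log2 ratio of day 5 to day 0 in shControl cells went from -2.74 to -2.85, and that of *Sertad3* from 0.64 to 0.53.

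Ratios were taken on the RPKM without a pseudocount. Exact (Clopper-Pearson) 95% intervals were computed from the recovered reads of the 2 libraries, and those of the differences of ratios from the normal approximation on the log scale. Neither covers the spread between cultures, and the comparisons carry no p-value for want of replicates. The days were also compared as pairs within the 4 lines (exact sign-flip test). A gene was called at more than 2-fold among genes with RPKM over 1 in at least 1 library. A pseudocount of 0.1 was used for medians and correlations. Named were the 4 members and *Cdca4*, up to 4 genes of each list past 2-fold in shControl cells or in the same direction in all 3 knockdown lines at day 5, the 5 genes most like each member, the flanking genes and the targeted genes. Further genes of the lists (*E2f1*, *Tfdp1*, *Cdk4*, *Crebbp*, *Ep300*, *Trim28*, *Rpa3*), *Gm15867* and *Gm12035* were named after their values were seen. A gene of the lipolysis list is not reported here, and the counts of that list leave it out. Alternatives were other pseudocounts, scalings, filters and a fold limit of 1.5. The scripts were tested on simulated data. Python 3.11.15, numpy 2.4.6, pandas 2.3.3, scipy 1.17.1 and matplotlib 3.10.9 were used.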

Additional observations from a re-analysis of the deposited data

Results flagged for a closer look

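*Sertad1* and *Sertad2* were noted because their ratio of day 5 to day 0 lay on opposite sides of 0 in shControl and shMLL1 cells, outside counting error in both. For *Sertad1* the log2 ratio was -0.48 in shControl and 0.34 in shMLL1 cells, a difference of 0.82 (95% interval 0.56 to 1.09). For *Sertad2* it was -0.40 and 0.12, a difference of 0.52 (0.37 to 0.66). With 1 library for each line and day, neither difference was tested against the spread between cultures. The *Sertad2* ratio of shMLL1 cells went to -0.06 under quantile normalization, -0.05 under median-of-ratios scaling and -0.00237 as a ratio to *Gapdh*, so its sign depends on the scale, whereas that of *Sertad1* stayed above 0 under the 6 other scales.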

How the results depend on the processing

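Each line and day has 1 library, so no library can be left out of a comparison. The days can be paired within line, which was done after the data had been seen and takes the 4 lines, different knockdowns, as the units. The mean log2 ratio of day 5 to day 0 over the 4 lines was -0.07 ± 0.36 (SD) for *Sertad1*, -0.11 ± 0.24 for *Sertad2*, 0.87 ± 0.41 for *Sertad3*, -1.46 ± 0.96 for *Sertad4* and -0.92 ± 0.26 for *Cdca4*. *Sertad3* was higher at day 5 in 4 of 4 lines and *Cdca4* in 0 of 4. Two-sided exact sign-flip tests gave p = 0.75, 0.5, 0.125 and 0.125 for *Sertad1*, *Sertad2*, *Sertad3* and *Cdca4* (0.75, 0.667, 0.25 and 0.25 with Benjamini-Hochberg adjustment over these 4). The smallest p that 4 pairs allow is 0.125, and *Sertad4* was not tested because it chose the family. No alternative reversed a call. *Sertad4* left its counting interval in some cases. From day 0 to day 5, adding 1 to each RPKM gave -2.54 in shControl cells. Quantile normalization gave -0.54 in shNFIB and -1.31 in shMLL1 cells, and median-of-ratios scaling -0.50 and -1.39. The ratio to *Gapdh* gave -0.98, -0.99 and -1.34 in the 3 knockdown lines (in the order shKDM4D, shNFIB, shMLL1), and leaving out the genes that resemble ribosomal RNA gave -1.34 in shMLL1 cells. Against shControl cells at day 0, the ratio to *Gapdh* gave 0.17, 1.10 and -0.24 in that order, and median-of-ratios scaling 0.0505 in shMLL1 cells. At day 5, adding 1 gave 1.69 in shKDM4D and 2.58 in shNFIB cells, and the ratio to *Gapdh* 1.13 in shMLL1 cells.

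Counts of members past the limit moved as follows. In shNFIB cells from day 0 to day 5, 0 members were higher after adding 1, after median-of-ratios scaling, as a ratio to *Gapdh* and without the genes that resemble ribosomal RNA, since *Sertad3* lies near 2-fold. As a ratio to *Gapdh*, 0 members were lower in shKDM4D cells from day 0 to day 5 and 1 (*Sertad4*) was higher in shNFIB cells at day 0. *Gapdh* itself ranged from 159 to 326 RPKM at day 0. With a 1.5-fold limit, 1 member (*Sertad3*) was higher in shControl cells at day 5 than at day 0, and 2 (*Sertad1* and *Sertad4*) were higher in shMLL1 than in shControl cells at day 5. The cause was not tested for any of these.

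The background depended on the filter and on the scale. With no filter on RPKM the calls came to 4.28% to 16.2% of genes higher and 4.70% to 7.17% lower over the 10 comparisons. Scalings of all genes were added after the data had been seen. The share of higher among called genes moved most as a ratio to *Gapdh*. It went from 71.8% to 29.4% in shNFIB and from 60.2% to 84.6% in shKDM4D cells from day 0 to day 5. Against shControl cells it went from 32.8% to 86.8% in shNFIB and from 31.8% to 10.7% in shKDM4D cells at day 0, and from 56.6% to 31.5% in shMLL1 cells at day 5. Quantile normalization brought it from 74.7% to 47.6% in shMLL1 and from 71.8% to 49.5% in shNFIB cells from day 0 to day 5, and from 60.3% to 47.9% in shControl and 60.2% to 48.5% in shKDM4D cells. Against shControl cells it gave 50%, 45.1% and 37.4% at day 0 in shKDM4D, shNFIB and shMLL1 cells (31.8%, 32.8% and 18.3% on the RPKM scale) and 44.2% at day 5 in shKDM4D cells (29.1%). Median-of-ratios scaling gave 63.4% in shMLL1 cells from day 0 to day 5. Depth limited *Kdm4d* and *Gm15867*, which had few reads, more than the members, which had at least 175.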
